A study of Zea mays with 48 samples.

Results

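The regions described here are the ZmCCA1 ChIP-seq peaks of maize seedlings that lie fully inside the body of the gene assigned to them, so that both peak edges fall between the ends of the gene and neither end is covered. In the 4 deposited peak lists, 7081 of 10136 peaks met this rule, and they lay in 3677 of the 4321 genes that had any assigned peak. By list, 2458 of 3364 peaks were inside the gene body in B73 and 1373 of 2102 in Mo17, and 1994 of 2796 in BM and 1256 of 1874 in MB.

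Binding was measured in aerial tissues taken 5 days after planting from seedlings kept under long days of 16 h of light and 8 h of dark, in B73, Mo17 and the 2 crosses between these inbreds, BM with B73 and MB with Mo17 as the female parent. Chromatin was collected at ZT3, ZT9 and ZT15 (hours after dawn) and precipitated with an antibody labelled ZmCCA1b, with 2 biological replicates, which gave 24 ChIP and 24 input libraries. Each list gives 1 value per peak and time point, the log2 ratio of ChIP to input computed by the authors, and no replicate values, so that no error can be attached to a single value and its read depth is unknown. No genotype lacked CCA1. Per the study, the antibody was raised to the DNA-binding MYB domain and could detect ZmCCA1b as well as ZmCCA1a in its full length, so that the peaks may belong to either protein. The tissue mixes cell types, and binding in fewer cells cannot be told apart from weaker binding in each.

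CCA1 is a MYB-type transcription factor of the plant circadian clock. In Arabidopsis it accumulates around dawn, binds the evening element and the related CCA1 binding site in promoters of clock genes and clock outputs, and mostly represses them while it is abundant. Clock factors are usually studied at promoters, but ChIP-seq in plants also places many peaks within transcribed regions.

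The DNA elements that CCA1 is known for are shown by the probes that the study made for gel shift assays of 2 genes that carried gene-body peaks in these lists. The gigantea gene gi1 (GRMZM2G107101) has a probe with the CCA1 binding site, and GRMZM2G129513 (mdh6, named for malate dehydrogenase) has one with the evening element. Capitals mark the element, and the mutated probe of each gene has none.
gi1 probe: gcatcgcggaAAAAATCTttttctcgcc
gi1 mutated probe: gcatcgcggaaaaaagagttttctcgcc
mdh6 probe: attaaatataaAAATATCTaaattcataa
mdh6 mutated probe: attaaatataccccgcgataaattcataa
Per the study, the probes are promoter fragments, so the elements are not shown to lie under gene-body peaks. The only gene-body peak of mdh6 lay 2992 bp from the gene start. The exact place of the probes relative to the peaks was not examined, since no genome of the AGPv2 build was used here. The sequence under the gene-body peaks is therefore not shown.

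Peaks inside the gene body made up the largest class of every list. Their share of all peaks was 73.1% in B73 (95% Wilson interval 71.5% to 74.5%) and 65.3% in Mo17 (63.3% to 67.3%), and 71.3% in BM (69.6% to 73%) and 67.0% in MB (64.9% to 69.1%), where the intervals cover counting error only. Of the peaks with an assigned gene, the share was between 77.0% in Mo17 and 82.4% in B73. The other peaks with a gene comprised 297 that covered the gene start, 108 that covered the whole gene and 1302 that lay upstream of it, and 1348 peaks had no gene. No peak was assigned to a gene whose 3' end alone it covered. Over the 3' ends of genes named in the lists there were 172 peaks, of which 112 were assigned to another gene further downstream, 35 to none, 16 to a gene whose start or whole length they covered, and 9 to a gene whose body held them. A comparison of gene-body peaks with peaks over the 3' end was thus not possible. In addition, 35 gene-body peaks overlapped a second gene named in the lists.

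At the limit set by the rule, 59 gene-body peaks began within 50 bp of the gene start and 38 ended within 50 bp of the 3' end, with smallest gaps of 2 and 1 bp. Outside it, 31 peaks extended over the gene start by at most 50 bp, the closest by 3 bp. The median of the highest log2(ChIP/Input) was 1.98 and 2.23 in the first and the second of these sets and 2.04 in the third, and ZT3 was the highest time point for 49.2%, 50% and 48.4% of their peaks.

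Genes with a peak in the body were long. The median length of the gene, counted over peaks, was 7009 bp in B73 and 7075 bp in Mo17, and 7078 bp in BM and 6826 bp in MB, against 1434 to 1847 bp for genes of the other assigned peaks, and the rule itself favours long genes because a peak has to fit inside. The peaks were 969 to 1046 bp wide by the median of a list, and covered a median of 13.6% to 15.1% of the gene. They ranged from 341 bp to 7411 bp in width. The shortest gene with a body peak was 423 bp and the longest 160321 bp, and 52.5% of the peaks lay in genes on the plus strand.

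Within genes, the assigned peaks were placed toward the start. The authors' assignment did not treat the ends of genes alike. Of 172 peaks over the 3' end of a gene named in the lists, 112 were assigned to another gene downstream. No peak without a gene lay inside a gene named in the lists. Whether peaks inside the 3' part of a gene were also assigned to a gene downstream was not tested. Such peaks would be missing from the 3' side here and in the bins below. The peak centre lay on the 5' side of the gene midpoint for 66.6% of gene-body peaks in B73 (95% Wilson interval 64.8% to 68.5%) and 65.4% in Mo17 (62.8% to 67.9%), and 66.4% in BM (64.3% to 68.4%) and 65.8% in MB (63.1% to 68.3%). The share on the 5' side exceeded that on the 3' side by 32.1 points on average (SD 1.14 over 4 lists), in all 4 lists, with p = 0.13 in an exact two-sided sign-flip permutation test over lists, the smallest value that 4 lists allow. Genes on both strands showed it, with 65.2% to 66.6% on the 5' side for genes on the plus strand and 64.0% to 67.4% on the minus strand. Measured from the near edge of the peak, the median distance was 1736 bp to 1858 bp from the gene start and 3184 bp to 3382 bp from the 3' end.

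Peak centres were most frequent between 1000 and 2500 bp from the gene start. In genes of at least 5 kb, each of the 500 bp bins in that interval held 10.3% to 13.3% of the gene-body peak centres of a list. The bins at the same distance from the 3' end held 2.02% to 5.50%. Centres within 500 bp of either end were rare (at most 0.786%), since a peak of usual width there would cover the end and leave the class by rule. When each gene was divided into 5 equal parts of the room that the peak has inside it, the part next to the start held 26.4% to 29.2% of the peaks and the part next to the 3' end 8.68% to 9.69%.

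**Figure D1:**
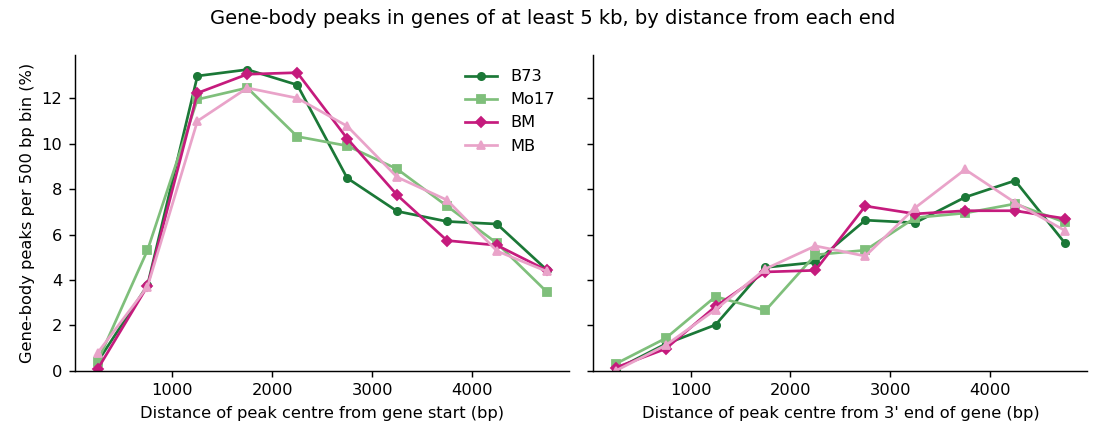
Share of gene-body peak centres (y axis, percent of the peaks of a list in genes of at least 5 kb) in bins of 500 bp from the gene start (left) and from the 3' end (right), with a line for each of the 4 lists. All 4 lines rise to between 10.3% and 13.3% at 1000 to 2500 bp from the start, and stay between 2.02% and 5.50% over the same distances from the 3' end.

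Most genes held a single peak in their body. In B73, 1830 genes had 1 gene-body peak, 260 had 2, 32 had 3 and 3 had 4. Genes with 2 or more made up 13.9% of genes in B73 and 10.7% in Mo17, and 13.7% in BM and 8.92% in MB, and their median length was 10059 bp against 6221 bp for genes with 1 peak. Neighbouring peaks of a gene in the same list were separated by a median of 1245 bp. They reached their highest value at the same time point in 140 of 333 pairs in B73 (42.0%) and 76 of 144 in Mo17 (52.8%). The numbers were 149 of 269 in BM (55.4%) and 52 of 113 in MB (46.0%). A peak in the body and a peak over the start or upstream of the same gene occurred together in 142 cases over the 4 lists, from 21 in MB to 48 in B73. In 76 of these cases both had the same highest time point, and in 78 the peak outside the body had the higher value. How often peaks would share a time point from the phase shares of a list alone was not computed for either comparison.

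The level of binding inside genes was close to that at gene starts. The median over peaks of the highest log2(ChIP/Input) was 1.97 in B73 and 1.93 in Mo17, and 2.01 in BM and 1.93 in MB for gene-body peaks, and 1.96, 2.13, 2.08 and 2.00 for peaks over the gene start. The difference averaged -0.08 on the log2 scale (SD 0.08 over 4 lists, range -0.19 to 0.01), with p = 0.25 in an exact two-sided sign-flip permutation test over lists (smallest possible 0.13). It was about as large as the spread between lists, and was -0.05 without Mo17. Peaks without a gene were lower, with medians of 1.66, 1.60, 1.63 and 1.49, and gene-body peaks exceeded them by 0.36 on average (SD 0.06 over 4 lists, higher in 4 of 4 lists, exact p = 0.13). A value of at least 2 was reached by 1132 gene-body peaks in B73 and 581 in Mo17, and 1008 in BM and 531 in MB, which is 46.1%, 42.3%, 50.6% and 42.3% of them, beside 44.2%, 43.5%, 48.5% and 41.2% of all peaks of these lists. A value of at least 3 was rare, with 27, 10, 5 and 3 gene-body peaks, or 1.10%, 0.728%, 0.251% and 0.239%, below the 1.37%, 1.05%, 0.572% and 0.854% of all peaks in each list.

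Gene-body peaks also varied in how strongly they changed over the day. The highest value led the next by a median of 0.53 in B73 and 0.59 in Mo17, and 0.70 in BM and 0.68 in MB. The lead was at least 1, a doubling of the ratio, in 19.1%, 23.4%, 28.2% and 28.0% of gene-body peaks, beside 19.6%, 22.3%, 28.5% and 27.4% of all peaks. At the other extreme, 44.8% of gene-body peaks in B73 kept a value of at least 1 at all 3 time points, with 33.6% in Mo17, 24.5% in BM and 26.7% in MB, beside 44.3%, 37.5%, 26.6% and 30.4% of all peaks. Less ChIP than input signal, a value below 0, was found at some time point in 5.86%, 9.47%, 9.58% and 13.4% of gene-body peaks, beside 8.47%, 13.1%, 12.7% and 17.6% of all peaks.

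The study asks whether ZmCCA1 binding moves to the morning in hybrids, and the gene-body peaks were therefore assigned to the time point of their highest value, their phase. In B73, 814 gene-body peaks were highest at ZT3, 1005 at ZT9 and 639 at ZT15, or 33.1%, 40.9% and 26.0% (beside 36.0%, 37.8% and 26.3% of all peaks). In Mo17 the numbers were 371, 726 and 275, or 27.0%, 52.9% and 20.0% (28.6%, 48.4% and 23.0% of all peaks), and 1 peak with a tie was left out. In BM, 1242, 676 and 76 gene-body peaks were highest at ZT3, ZT9 and ZT15, or 62.3%, 33.9% and 3.81% (63.2%, 31.1% and 5.69% of all peaks). In MB the numbers were 591, 506 and 159, or 47.1%, 40.3% and 12.7% (51.7%, 35.0% and 13.3% of all peaks). Both inbreds thus had their most frequent phase at ZT9 and both hybrids at ZT3, and the gene-body shares differed most from those of all peaks at ZT9 in MB.

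Between genotypes, the ZT3 share of gene-body peaks averaged 54.7% in hybrids and 30.1% in inbreds, a difference of 24.6 points, and the groups did not overlap. The ZT15 share averaged 8.24% in hybrids and 23.0% in inbreds (difference -14.8 points), again without overlap, and the ZT9 share 37.1% and 46.9% (difference -9.81 points), where MB and B73 were 0.600 points apart. For each of the 3 time points the exact two-sided permutation test of 2 hybrids against 2 inbreds gave p = 0.33, the smallest value that 4 lists allow. The size of the difference depended on the level of the whole list at each time point. The median of all peaks at ZT15 was 1.33 in B73 and 1.17 in Mo17 but 0.82 in BM and 0.95 in MB, and at ZT3 it was 1.48, 1.34, 1.79 and 1.52. Once each time point was centred on the median of all peaks of its list, the ZT3 difference between hybrids and inbreds was 4.35 points, the ZT15 difference -4.40 points and the ZT9 difference 0.0517 points. Whether the list-wide levels come from the plants or from the libraries cannot be told apart with 1 value per list and time point.

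The same contrast was numerically larger at gene starts. Peaks over the gene start were highest at ZT3 in 37.6% of cases in B73 and 14.7% in Mo17, and 75.3% in BM and 69.5% in MB, a difference of 46.2 points between hybrids and inbreds, which was 21.6 points more than inside the gene body (exact two-sided permutation test of the difference over lists, p = 0.33, the smallest possible). Upstream peaks differed by 33.2 points and peaks without a gene by 11.7 points. Within lists, the ZT3 share of gene-body peaks minus that of peaks over the start was -4.52 points in B73 and 12.3 in Mo17, and -13.0 in BM and -22.4 in MB. It averaged -6.91 points (SD 14.8 over 4 lists, exact sign-flip p = 0.375), and was not larger than the spread between lists. It ranged from -13.3 points without Mo17 to -1.74 without MB, and turned to 1.87 points with median centring. There were only 59 to 93 peaks over the start per list.

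Relative to upstream peaks, gene-body peaks were more often highest at ZT9 and less often at ZT3 in every list. The ZT9 share was higher by 11.4 points on average (SD 3.99, range 7.52 to 16.9, in 4 of 4 lists), and the ZT3 share lower in 4 of 4 lists with a mean difference of -9.27 points (SD 7.68, range -19.5 to -0.896). Both gave p = 0.13 in the exact two-sided sign-flip permutation test, the smallest value possible, and both comparisons were chosen after the values were known.

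**Figure D2:**
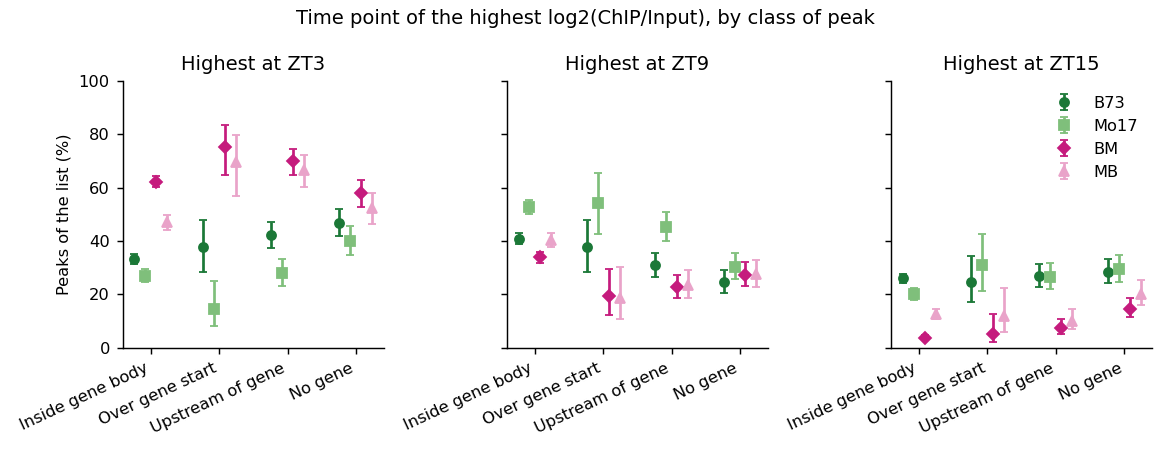
Percent of peaks (y axis) whose highest log2(ChIP/Input) was at ZT3 (left), ZT9 (middle) or ZT15 (right), for peaks inside the gene body, over the gene start, upstream of the gene and without a gene, with 1 point per list and 95% Wilson intervals as bars. Inside the gene body the ZT3 share was 62.3% in BM and 47.1% in MB, above 33.1% in B73 and 27.0% in Mo17.

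Timing along the gene differed by a few points. On the 5' side of the midpoint the ZT3 share differed from that on the 3' side by -1.73 points in B73 and -2.85 in Mo17, and 0.0724 in BM and 4.71 in MB, with a mean of 0.0534 points (SD 3.33 over 4 lists, exact two-sided sign-flip p = 0.875). The ZT9 share was higher on the 5' side in 4 of 4 lists, by 3.04 points on average (range 0.436 to 5.74), and the ZT15 share was lower in 4 of 4 lists (mean difference -3.10 points, range -5.15 to -1.98), each with exact p = 0.13, the smallest possible. The median highest log2(ChIP/Input) was higher on the 5' side in 4 of 4 lists, by 0.05 on average (SD 0.02, exact p = 0.13, the smallest possible).

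Peaks inside genes recurred less often in the other genotypes than the other peaks with a gene. A peak of at least 1 other list overlapped 48.4% of the gene-body peaks in B73 and 58.9% in Mo17, and 54.1% in BM and 62.5% in MB, beside 50.5%, 60.6%, 55.7% and 62.3% of all peaks. For the other peaks with a gene the shares were 62.2%, 72.7%, 68.0% and 74.3%. The difference averaged -13.3 points (SD 0.993 over 4 lists, range -13.9 to -11.8, lower in 4 of 4 lists, exact two-sided sign-flip p = 0.13, the smallest possible). It was -22.5 points where peaks had to overlap reciprocally by 50%, and -20.3 points without B73. Among peaks 700 to 1300 bp wide, it was smaller, at -8.93 points. Presence in all 3 other lists separated the classes further, with 8.62% to 15.9% of gene-body peaks against 35.9% to 50.8% of the other peaks with a gene. Absence from a list means only that no peak was listed there.

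Recurrent gene-body peaks were higher, wider and flatter in time than those of a single list. Gene-body peaks overlapped in all other lists had a median highest log2(ChIP/Input) of 2.04 to 2.14, a median width of 1207 to 1425 bp and a median lead of 0.34 to 0.45. Those found in 1 list had medians of 1.84 to 1.96, 894 to 958 bp and 0.65 to 0.87. Where a gene-body peak was overlapped by a peak of another list, that peak was itself inside a gene body in 6582 of 6773 cases (97.2%), and 3290 of the 3291 overlapping pairs of gene-body peaks were assigned to the same gene. By gene, 2113 genes had gene-body peaks in 1 list (57.5%), 857 in 2, 433 in 3 and 274 in all 4 (7.45%).

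The share of overlapping gene-body peaks with the same phase was counted for each pair of lists. B73 and Mo17 had the same phase in 45.2% of 569 overlapping pairs, and BM and MB in 50.7% of 473. The 4 pairings of an inbred with a hybrid gave 33.1% to 35.3%. These shares depend on how often each list has each phase, which differs between inbreds and hybrids, the same lists enter several pairings, and the shares are a description.

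**Figure D3:**
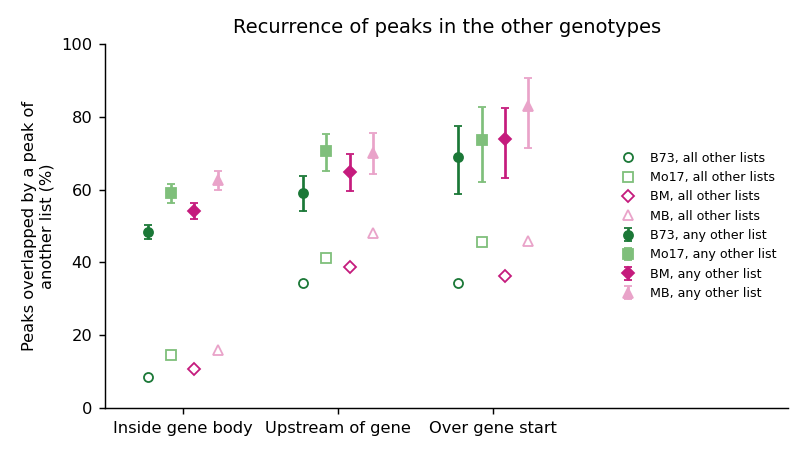
Percent of the peaks of a list (y axis) overlapped by at least 1 bp by a peak of any other list (filled, with 95% Wilson intervals) or of all 3 other lists (open), for peaks inside the gene body, upstream of the gene and over the gene start. Inside the gene body 48.4% to 62.5% recurred in any other list and 8.62% to 15.9% in all of them, below the other classes in each list.

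At 209 loci, gene-body peaks of all 4 lists were joined by overlaps of at least 1 bp. At 179 of them some base was covered in every list, and at the other 30 the peaks of some lists were joined only through those of others and need not mark the same site. Of these, 151 (72.2%) had their centre on the 5' side of the gene midpoint. Mean log2(ChIP/Input) at ZT3 was 1.86 in B73 and 1.66 in Mo17, and 2.02 in BM and 1.86 in MB (SD over loci 0.46 to 0.57). At ZT9 it was 1.88, 1.87, 1.75 and 1.64. At ZT15 it was 1.95, 1.69, 1.19 and 1.36 (SD 0.48 to 0.71), so that the lists stood furthest apart at this time point. In B73, 57 loci were highest at ZT3, 63 at ZT9 and 89 at ZT15. In Mo17 the numbers were 34, 92 and 83, in BM 145, 60 and 4, and in MB 133, 63 and 13.

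The ZT3 value minus the average of the later time points (ZT9 and ZT15) was 0.54 higher in hybrids than in inbreds on average over the 209 loci (SD 0.52 over loci; list means -0.05 in B73 and -0.13 in Mo17, and 0.56 in BM and 0.35 in MB; exact two-sided permutation over lists, p = 0.33, the smallest possible). It was positive at 182 loci, and averaged 0.51 over the 105 loci that remained under a reciprocal overlap of 50%. Both hybrids exceeded both inbreds at 113 loci (54.1%) and fell below both at 5 (2.39%), beside 60.9% and 2.76% of the 471 loci of any class present in all lists. By time point, both hybrids were below both inbreds at 122 loci at ZT15 (58.4%, beside 55.2% of all loci) and at 75 at ZT9 (35.9%, beside 39.1%), and above both at 66 loci at ZT3 (31.6%, beside 29.9%). The opposite cases were 20 loci below at ZT3 (9.57%, beside 9.34% of all loci), 15 above at ZT9 (7.18%, beside 6.58%) and 2 above at ZT15 (0.957%, beside 2.34%). Lower values at ZT15 were thus more frequent than higher values at ZT3. The shares by time point were near those of all loci, which include the gene-body loci. At the 262 loci without a gene-body locus, both hybrids exceeded both inbreds in ZT3 minus the later average at 66.4%. They were below both at 52.7% at ZT15 and 41.6% at ZT9, and above both at 28.6% at ZT3. Centred on the median of all peaks of each list and time point, the mean difference over the 209 loci was 0.02 (exact p = 1).

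At 54 loci (25.8%, beside 23.1% of all loci) the inbreds shared one phase and the hybrids another. At 40 of these the inbreds were highest at ZT15 and the hybrids at ZT3 (19.1%, beside 15.9% of all loci), and at 13 the inbreds at ZT9 and the hybrids at ZT3 (6.22%, beside 6.58%). Both hybrids and neither inbred were highest at ZT3 at 60 loci (28.7%, beside 27.2% of all loci), and both inbreds and neither hybrid at 2 (0.957%, beside 0.637%). These shares, too, were near those of all loci. The order of loci by how far ZT3 stood above the later time points within a list was hardly shared between lists. Across the 209 loci, Spearman's rho of the highest value ranged from 0.22 to 0.45 over the 6 pairs of lists, while rho of the ZT3 value minus the mean of the others ranged from 0.0001 to 0.15. These are correlations across loci, which are not independent replicates.

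**Figure D4:**
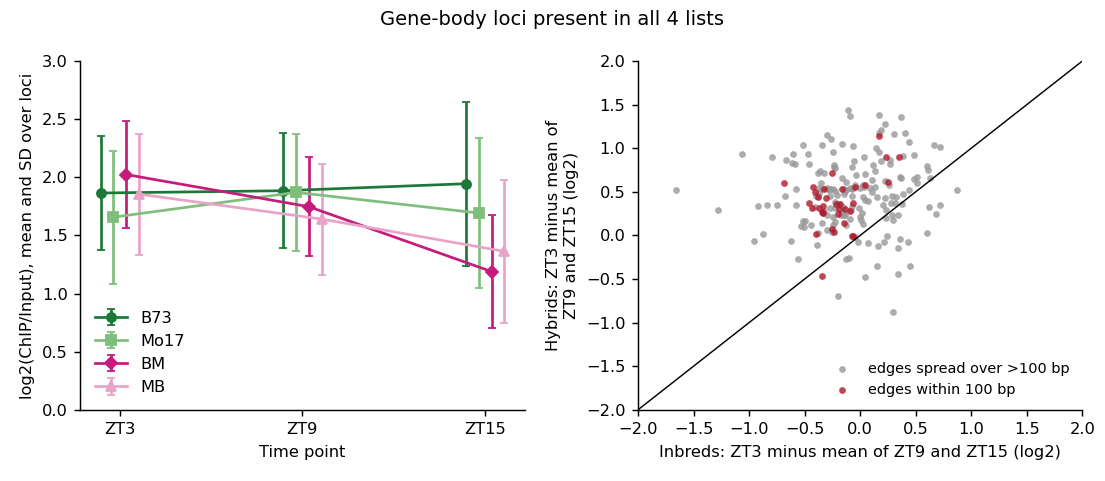
The 209 gene-body loci present in all 4 lists: mean and SD over loci of log2(ChIP/Input) by time point and list (left), and, for each locus, ZT3 minus the average of the later time points averaged over hybrids (y axis) against inbreds (x axis), with the line of equal values (right). Points lie above the line at 182 loci, and red points mark the 34 loci whose outer peak edges agreed within 100 bp in all lists.

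The 5 loci with the highest mean of the highest value over the 4 lists, chosen for that value, are described first. In GRMZM2G117134, a gene of 3009 bp on chromosome 7, the peak started at the same base, 18053531 (AGPv2), in all 4 lists. Its values at ZT3, ZT9 and ZT15 were 2.51, 3.27 and 2.83 in B73, 3.59, 3.64 and 3.41 in Mo17, 2.55, 3.21 and 2.58 in BM and 3.30, 2.93 and 2.84 in MB. It was the only one of the 5 with its highest value at ZT9 in both inbreds, and Mo17 was above all other lists at each time point.

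The other 4 of these loci were highest at ZT15 in both inbreds. In GRMZM2G455403 on chromosome 10, values at ZT3, ZT9 and ZT15 were 2.81, 3.08 and 4.03 in B73, 2.11, 2.37 and 3.08 in Mo17, 2.92, 2.65 and 1.92 in BM and 2.72, 1.67 and 2.64 in MB. In GRMZM2G062854 on chromosome 6, the higher of its peaks had 2.97, 2.95 and 3.75 in B73, 3.08, 3.07 and 3.35 in Mo17, 3.20, 2.55 and 2.16 in BM and 3.12, 2.25 and 2.78 in MB. The hybrids were below both inbreds at ZT15 at both loci, while the 4 lists ranged from 2.11 to 2.92 at ZT3 at the first and from 2.97 to 3.20 at the second. GRMZM2G358180 on chromosome 5 reached 3.99 in B73 and 2.79 in Mo17, and 2.95 in BM and 2.92 in MB. GRMZM2G031461 on chromosome 7 reached 3.37, 3.39, 3.00 and 2.81, with BM at ZT9 and MB at ZT3. RefSeq gives none of these 5 genes a functional name.

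Where both hybrids exceeded both inbreds, the 3 largest differences in ZT3 minus the average of the later time points had low ZT3 values in one or both inbreds. In GRMZM2G074479 on chromosome 7 (difference 2.19), the ZT3 values were 0.82 in B73 and -0.50 in Mo17, against 2.02 in BM and 1.87 in MB. In GRMZM2G022625 on chromosome 3 (2.00), values at ZT3, ZT9 and ZT15 were 1.60, 1.90 and 1.47 in B73, 0.13, 2.31 and 2.04 in Mo17, 1.62, 1.58 and 1.39 in BM and 2.18, 0.19 and 0.71 in MB. There the B73 and BM profiles were almost flat, and Mo17 and MB carried the difference. In GRMZM2G061980 on chromosome 6 (1.69), ZT3 was 0.68 in B73 and 1.08 in Mo17, against 2.27 in BM and 2.00 in MB, but the B73 and Mo17 peaks did not overlap.

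The opposite direction was found at 5 loci, of which the 3 largest were GRMZM2G302233 (difference -0.80), GRMZM2G066051 (-0.50) and GRMZM2G035445 (-0.50), the last named LAZ1-5 in RefSeq. In GRMZM2G066051 on chromosome 7, values at ZT3, ZT9 and ZT15 were 2.61, 1.54 and 2.46 in B73, 1.04, 0.36 and 1.22 in Mo17, 1.16, 1.57 and 0.76 in BM and 0.73, 1.65 and 0.08 in MB. Both hybrids were highest at ZT9 there, where both inbreds were lowest. The Mo17 peak overlapped neither the B73 nor the MB peak at this locus, and in GRMZM2G302233 it overlapped only the BM peak.

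Few loci kept 1 phase in all 4 genotypes, with 4 at ZT3, 3 at ZT9 and none of 209 at ZT15. Of those at ZT3, the lead over the next time point was largest in GRMZM2G139968, a gene of 744 bp on chromosome 4, with ZT3 values of 2.07 in B73 and 2.44 in Mo17, and 2.30 in BM and 2.31 in MB and leads of 0.28, 0.93, 0.74 and 0.85. GRMZM2G173833 and GRMZM2G105976 followed. GRMZM2G105976 also had 2 peaks upstream of the gene in each list, which were highest at ZT9 in Mo17 and at ZT3 in the other 3 lists. The loci constant at ZT9 were in GRMZM2G159992, GRMZM2G005791 and GRMZM2G035445, with leads at the ZT9 peaks of GRMZM2G035445 of 0.35 in B73 and 0.08 in Mo17, and 0.61 in BM and 0.01 in MB.

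Of the 16 clock genes, carbon fixation genes and CCA1 homologs that the study takes up, 8 had a peak inside the gene body in some list. For 2 of them the peak stood at the same place in every list. Per the study, GRMZM2G427369 encodes a photosynthetic reaction center protein and GRMZM2G448142 a beta subunit of ATP synthase. Whether reads at these genes, or at GRMZM2G394732 below, also match other copies, such as chloroplast DNA, was not tested. In GRMZM2G427369 (chromosome 5, gene of 6486 bp, peak start 209966474 to 209966482 in AGPv2), the values at ZT3, ZT9 and ZT15 were 2.13, 1.61 and 2.38 in B73, 2.24, 1.46 and 2.35 in Mo17, 2.38, 1.47 and 1.26 in BM and 2.25, 1.29 and 1.67 in MB. All lists lay between 2.13 and 2.38 at ZT3, and both hybrids were below both inbreds at ZT15. In GRMZM2G448142 (chromosome 1, gene of 9019 bp, peak start 203906230 to 203906259), they were 1.96, 2.23 and 2.69 in B73, 2.03, 2.18 and 2.22 in Mo17, 2.04, 2.1 and 1.61 in BM and 2.18, 1.76 and 1.93 in MB. This gene also had an upstream peak in all 4 lists, of lower value than the peak in the body in each of them.

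GRMZM2G394732 (chromosome 5, gene of 2012 bp), per the study a gene for photosystem II reaction center protein Z, carried the highest gene-body peak of all. Its values at ZT3, ZT9 and ZT15 were 4.51, 4.27 and 5.35 in B73 and 4.27, 4.60 and 5.27 in Mo17, and no assigned peak was listed for it in BM or MB. The study itself describes a shift of binding at this gene in the hybrids. It also assayed binding there by ChIP-qPCR in a cross of a ZmCCA1b overexpression line with Mo17. Whether that binding lies at the place of this peak was not examined. GRMZM2G398288 (chromosome 9) had a peak in B73, Mo17 and BM, of which the B73 peak overlapped the other two, with 1.39, 2.02 and 0.96, then 1.73, 2.22 and 0.30, then 1.93, 1.99 and 0.49, all highest at ZT9.

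The 2 gigantea genes encode homologs of GIGANTEA, a clock protein that in Arabidopsis links the clock to flowering time. The gene-body peaks of gi2 (GRMZM5G844173, chromosome 3) were highest at ZT9 in each list that had them, with 0.17, 2.54 and 0.33 at ZT3, ZT9 and ZT15 in Mo17, 0.19, 1.31 and 0.35 in MB, and 1.12, 1.89 and 0.42 and 0.84, 1.99 and 0.63 at the 2 peaks of BM. In gi1 (GRMZM2G107101, chromosome 8), the peak of Mo17 had 0.76, 1.68 and 0.22, and the peaks of BM had 1.39, 1.95 and 0.50 and 1.85, 1.71 and 0.93. Neither gene had a peak in B73. The Mo17 peak of gi1 overlapped both BM peaks, the Mo17 peak of gi2 overlapped 1 of the BM peaks, and the MB peak of gi2 overlapped none. GRMZM2G126988 (chromosome 5) had 2 peaks in BM and 1 in MB, and GRMZM2G129513 (mdh6, chromosome 1) had 1 peak in B73 with 0.93, 2.29 and 1.41, close to the 3' end of the gene.

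**Figure D5:**
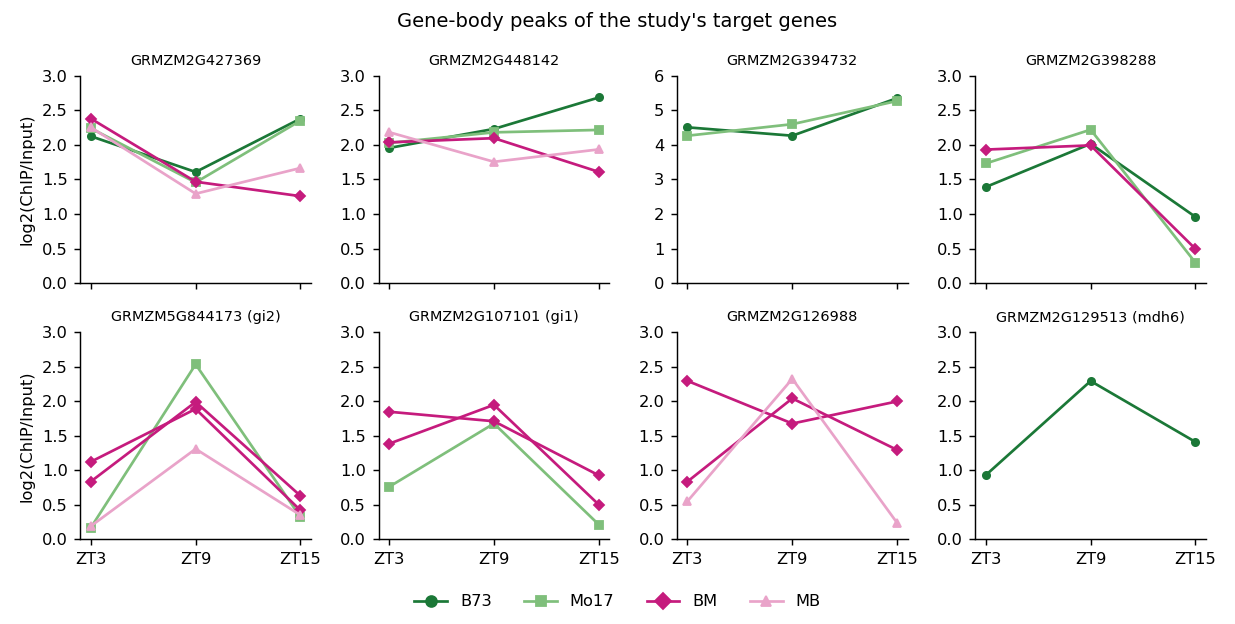
log2(ChIP/Input) by time point (x axis) of every gene-body peak in 8 of the study's target genes, with 1 line per peak coloured by list (the y axis of GRMZM2G394732 runs to 6, the others to 3). Lines of gi2 all rise to ZT9, and in GRMZM2G427369 the lists lie between 2.13 and 2.38 at ZT3 and separate at ZT15.

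The genes with the most gene-body peaks summed over lists were GRMZM2G427444 with 12 and GRMZM2G127632 with 10, followed by 9 genes with 9 each. In GRMZM2G427444 (chromosome 5, 23917 bp), 3 peaks stood at the same 3 places in every list. All 6 inbred peaks were highest at ZT15 (23.9% over all inbred gene-body peaks), with values from 2.11 to 2.92. Of the 209 loci present in all lists, 42.6% in B73 and 39.7% in Mo17 were highest at ZT15. Of the 6 hybrid peaks 5 were highest at ZT3 (56.4% over all hybrid gene-body peaks) and 1 at ZT9, with values from 1.75 to 2.22. In GRMZM2G127632, 4 of the 5 inbred and 4 of the 5 hybrid peaks were highest at ZT3. The longest genes with a gene-body peak were GRMZM2G053713 (160321 bp, 1 peak in B73 and 1 in MB at different places) and GRMZM2G003595 (150713 bp). In the latter all 5 peaks of B73, Mo17 and BM lay between 85.8% and 89.8% of the way along the gene, with highest values from 1.36 to 2.64.

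Gene names could be had for a small part of the genes: 2630 of the 3677 genes matched a RefSeq entry (Zm-B73-REFERENCE-NAM-5.0), most with a number for a name. From the names, 54 genes were gathered into lists by function after the files had been read, so that their values are a description, without a test. Over all gene-body peaks, 56.4% of hybrid and 30.9% of inbred peaks were highest at ZT3, 36.4% and 45.2% were highest at ZT9, and the median highest value was 1.97.

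Cellulose synthase genes, which encode the catalytic subunits that make the cellulose of the cell wall, had 11 gene-body peaks in 5 genes, with a median highest value of 2.14. All 7 hybrid peaks were highest at ZT3, against 1 of 4 inbred peaks (56.4% and 30.9% over all hybrid and inbred gene-body peaks). In cesa5, values at ZT3, ZT9 and ZT15 were 0.73, 0.96 and 1.63 in B73, 2.44, 0.10 and 0.68 in BM and 2.19, 1.67 and -0.02 in MB. The peaks of the 3 lists lay at 28.4% to 31% of the way along the gene. In cesa10, BM had 2.46, 0.64 and 1.73, and B73 had 1.33, 2.32 and 1.62. Mo17 had 2 peaks in this gene, with 1.53, 0.96 and 0.52 at the first and 0.87, 1.47 and 2.18 at the second. The first was thus highest at ZT3 and the second, which overlapped the BM peak, at ZT15.

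Among clock genes and light receptors, 13 peaks in 4 genes had a median highest value of 1.89, and 5 of 8 hybrid peaks were highest at ZT9 (36.4% over all hybrid gene-body peaks). The blue light receptor gene phot1 had 2 peaks each in B73 and BM near its start, at 6.28% to 12.2% of its length, all highest at ZT3. It had 1 peak in MB near its 3' end, highest at ZT9. The red light receptor gene PhyB1 had 1 peak, in B73, with 1.63, 1.99 and 0.83.

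Genes of plastid isoprenoid and carotenoid synthesis had 15 peaks in 7 genes, with no common phase: 2 of 6 hybrid and 4 of 9 inbred peaks were highest at ZT3. Hds1, an enzyme of the plastid pathway to isoprenoids, had gene-body peaks in all 4 lists, partly overlapping, with highest values from 2.01 to 2.53. The phytoene desaturase gene pds1 had overlapping positions in B73 (66.6% along the gene; 1.28, 1.69 and 0.69) and BM (68.1%; 1.42, 1.41 and 0.65),, where ZT3 and ZT9 were nearly equal. Carbon fixation and related genes had 14 peaks in 7 genes, 5 of which had peaks in 1 list. The Rubisco small subunit gene rbcS had 1 peak, in MB, with 2.22, -1.24 and -0.49, and pep4, a phosphoenolpyruvate carboxylase gene, 1 in B73 with 0.20, 0.13 and 1.96. In FTR-B, peaks at 2 places recurred, near 25.1% to 30.4% and 79.2% to 81.8% of the gene.

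Genes for the splicing of plastid introns had 11 peaks in 4 genes, 10 on the 5' side of the midpoint (4686 of 7081 over all gene-body peaks). In crs1 the peaks of B73, Mo17 and MB stood at 7.52% to 8.46% of the gene, with ZT3 values of 2.11, 0.87 and 2.09. SR splicing factor genes had 15 peaks in 7 genes. Of these, 8 of 10 inbred peaks were highest at ZT9 (45.2% over all inbred gene-body peaks). ZT3 was highest for 4 of 5 hybrid peaks (56.4% over all hybrid gene-body peaks). SR45_2 had a peak at 55.6% to 56.1% of the gene in all 4 lists, with highest values of 1.91 in B73 and 2.15 in Mo17, and 2.06 in BM and 1.80 in MB. Genes of Mediator, the complex that bridges transcription factors and RNA polymerase II, and of the polymerase had 13 peaks in 5 genes. Of these, 5 of 7 inbred peaks were highest at ZT9, beside the same 45.2%. Med12a was bound within the gene in all 4 lists. The histone deacetylase Hda1 had gene-body peaks in all 4 lists, with highest values of 1.79 in B73 and 1.74 in Mo17, and 2.12 in BM and 1.80 in MB, at 18.2% to 21.0% of the gene in B73, Mo17 and BM and at 51.3% in MB. The autophagy list held 5 peaks in 4 genes and the translation initiation list 6 peaks in 5 genes. The 1 hybrid peak of the former and the 3 of the latter were highest at ZT3, beside the same 56.4%.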

How the data were processed

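Per the paper's methods, the authors trimmed reads, aligned B73 reads to AGPv2, Mo17 reads to a Mo17 assembly and hybrid reads to both, kept unique pairs without duplicates, sampled libraries to equal depth, called peaks against input (MACS2 2.0.1 per the processing notes), kept peaks found in both replicates and merged time points. The deposited values are log2 ratios of ChIP to input, 1 per peak and time point. How replicates were combined, and whether the lists were already filtered by the ANOVA over enrichment that the methods name, is not given in the sources used here. If they were, the phase and lead shares describe the filtered peaks only. The lists hold no read counts, so depth per peak is unknown. All 3 value columns of each list were used unchanged.

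Peaks were classed by edges, gene ends and strand, ties in phase were left out, and peaks overlapping by at least 1 bp were joined into loci, with the highest value per list and time point. Intervals are 95% Wilson. The list was the unit of every test, since peaks are not replicates. Alternatives were centring, minimum lead or level, distance from gene ends, widths, reciprocal overlap, 1 peak per gene and leaving out a genotype. Centring on the mean was chosen after seeing the data. Members and lists were chosen with earlier results of these data known.

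Genes were named by rule: the study's targets, the 5 highest recurrent loci, the 3 largest and smallest hybrid differences, up to 3 loci per constant phase, the genes with most peaks, the 2 longest genes, and keyword lists (clock, photosynthesis, carbon fixation, starch and sucrose), which in RefSeq names matched only gi1. The functions were tested on simulated lists. Python 3.11.15, numpy 2.4.6, pandas 2.3.3, scipy 1.17.1 and matplotlib 3.10.9 were used.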

Additional observations from a re-analysis of the deposited data

Results flagged for a closer look

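The ZT3 share on the 5' side of the gene midpoint minus that on the 3' side had opposite signs in the 2 kinds of genotype. It was negative in both inbreds (-1.73 points in B73 and -2.85 in Mo17) and positive in both hybrids (0.0724 in BM and 4.71 in MB), so that hybrids exceeded inbreds by 4.68 points. With 2 lists against 2 the difference was not tested, and the BM value is close to 0.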

How the results depend on the processing

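Of 88 alternative values for 10 results, 79 were counted as the same, 7 turned and 2 moved. The same meant an unchanged sign. For the share of peaks inside the gene body it meant a value closer to the main one than the SD over lists. No test could pass the threshold, because 4 lists allow no exact p below 0.13 or 0.33. Median centring turned the ZT9 difference between hybrids and inbreds to 0.0517 points and the ZT3 share of gene-body peaks minus that of peaks over the start to 1.87 points. It reduced the ZT3 difference between hybrids and inbreds to 4.35 points (9.19 with mean centring) without turning it. The ZT3 share on the 5' minus the 3' side, near 0 throughout, became -0.0598 points with median centring, -1.06 with a lead of at least 0.5, -0.503 and -1.32 with a highest value of at least 1.5 and 2, and lay between -1.5 and 1.02 when a genotype was left out. The share of peaks inside the gene body, averaged over lists, was 69.2%, 59.6% with a margin of 500 bp at both gene ends and 80.1% among peaks with a gene. Leaving out a genotype gave ZT3 differences of 17.0 to 32.2 points, ZT9 differences of -15.8 to -3.79 (the latter without Mo17), ZT15 differences of -19.2 to -10.4, and locus differences of 0.39 to 0.61. The comparison with peaks over the 3' end was not run because there were none. The position over the room inside the gene splits the peaks exactly as the midpoint does. No paired analysis was possible because each list holds 1 value per time point with the replicates already combined.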

Other observations

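A small set of gene-body loci had the same outline in every genotype. At 34 of the 209 loci present in all lists, the outer edges of the highest peak of each list agreed within 100 bp (median range 24.5 bp), while the median range was 1150 bp at the other 175. This limit was chosen after the values had been seen. The loci with the same outline were higher (median over loci of the mean highest log2(ChIP/Input) 2.39, against 2.09) and flatter in time (median lead 0.33, against 0.48; median lowest value 1.82, against 1.16). B73 was highest at ZT15 at 29 of them (60 of the other 175) and Mo17 at 27 (56 of 175). BM was highest at ZT3 at 23 of them (122 of 175) and MB at 31 (102 of 175). The rise of ZT3 over the other time points in hybrids relative to inbreds averaged 0.58 (SD 0.29) at these loci and 0.54 (SD 0.55) at the others, and both hybrids exceeded both inbreds at 27 of 34 and at 86 of 175.

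Several genes with gene-body peaks lie close together on a chromosome. GRMZM2G427444, GRMZM2G427369, GRMZM2G358180 and GRMZM2G394732 occupy 52602 bp of chromosome 5 (209941447 to 209994048, AGPv2) and hold 26 gene-body peaks. All 14 inbred peaks were highest at ZT15, and of the 12 hybrid peaks 10 were highest at ZT3 and 2 at ZT9. Over all gene-body peaks, 23.9% of inbred peaks were highest at ZT15 and 56.4% of hybrid peaks at ZT3. At the 209 loci present in all lists, the ZT15 share was 42.6% in B73 and 39.7% in Mo17. The ZT3 share there was 69.4% in BM and 63.6% in MB. The sites of this neighbourhood recur between lists and are counted once for each list.

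In 18 genes every list had at least 2 gene-body peaks, and in 8 of them every inbred peak was highest at ZT15. At the 209 loci present in all lists, ZT15 was highest at 42.6% in B73 and 39.7% in Mo17. Among the 18, GRMZM2G062854 on chromosome 6 (7072 bp), GRMZM2G444541 on chromosome 3 (6535 bp) and GRMZM2G358180 on chromosome 5 (6502 bp) are alike in length and in layout. The first has peaks at 40.3% to 40.5% and 80.6% to 80.7% of its length, the second at 40.3% to 40.5% and 79.0% to 80.0%, and the third at 35.8% to 37.6% and 81.4% to 81.9%. Whether these genes share sequence was not tested, and where copies are alike the assignment of reads to one of them is uncertain.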
